A study of Catharanthus roseus with 35 samples.

Results

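In outdoor plants of Catharanthus roseus, the transcriptome of leaf pair 4 was compared with that of leaf pair 1. Pairs are numbered from the apex down, and pair 1 is the youngest. The comparison takes 6 of the 35 samples of the study, 3 of leaf pair 4 outdoors and 3 of leaf pair 1 outdoors, and all 35722 genes of the count files. All 6 came from cultivar Little Bright Eye, an ornamental periwinkle, and were taken in flower. The outdoor plants had stood for about 6 months in direct sunlight at a south-facing site. Leaves of 3 plants were sampled, with the central veins removed, on a hot day of early September, and each plant gave 1 sample per leaf pair. Samples of leaf pairs 4 and 1 from plants of a growth chamber (indoors, 3 of each) entered the same fit, and leaf pairs 2 and 3 of the outdoor plants (3 of each) were sequenced on another platform, Nanopore. The remaining samples of the study are protoplasts, sorted cells and leaves of a cell sorting experiment. Each group rests on 3 plants sampled together, and no batch is given in the sources used here.

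Catharanthus roseus leaves make monoterpenoid indole alkaloids (MIAs), a group that includes catharanthine, vindoline and the anticancer dimer vinblastine. The pathway is split between cell types. The iridoid part starts in internal phloem-associated parenchyma (IPAP), the steps from loganic acid through secologanin and tryptamine to strictosidine run in the epidermis, and the last steps to vindoline take place in idioblasts and laticifers, where alkaloids are stored. Young leaves of this plant are known as the main site of expression of the pathway, while older leaves grow little and export sugars.

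Total counts were 11567947 to 12484041 per sample in leaf pair 4 and 13402073 to 15122993 in leaf pair 1, with 18920 to 19176 and 19533 to 19661 genes detected. The 10 most counted genes took 5.56% to 5.83% of counts in leaf pair 4 and 3.99% to 4.53% in leaf pair 1. Over the 12 Illumina leaf samples, the first principal component (74.2% of the variance of the 500 most variable genes) separated leaf pair 4 from leaf pair 1 and the second (14.5%) separated outdoors from indoors. Levels are given as CPM, counts set to a common library total after scaling for library composition, in the order of plants 1, 2 and 3. They are not corrected for gene length, so levels are compared between samples and not between genes.

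By edgeR's quasi-likelihood test, with Benjamini-Hochberg adjustment over the 17299 genes tested, genes were called where the adjusted p did not exceed 0.05 and the log2 fold change (FC, pair 4 over pair 1) was 1 or more in size. In leaf pair 4, 1455 genes (8.41% of those tested) were higher and 2412 genes (13.9%) were lower than in leaf pair 1, together 22.4%. The decreases were also the deeper changes. A log2 FC of at least 2 was reached by 435 of the higher and 1159 of the lower genes, and one of at least 4 by 54 of the higher and 382 of the lower genes. The median size of the change was 1.54 among higher genes and 1.93 among lower genes. The 3 samples of leaf pair 4 lay wholly above those of leaf pair 1 in 1405 of the higher genes and wholly below them in 2381 of the lower genes, where 29.4% and 31.3% of all genes tested were separated in these directions. Among the genes tested, 48 had no count in leaf pair 4, of which 42 were called lower, and 8 had no count in leaf pair 1, of which 6 were called higher. The plot of level against change shows the higher and the lower genes spread over the whole range of levels. Among the 1156 genes tested that carry a description, by contrast, more were higher (217) than lower (168).

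**Figure D1:**
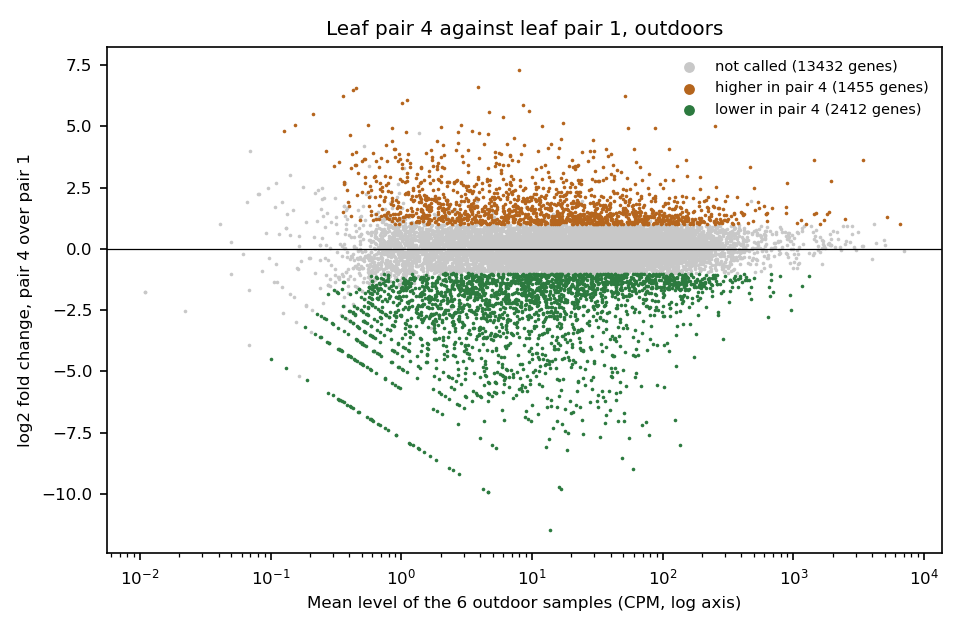
Change with leaf age outdoors against level. Each point is 1 of the 17299 genes tested, with its mean CPM over the 6 outdoor samples on a log axis and its log2 FC, pair 4 over pair 1, on the vertical axis. The 2412 lower genes reach further from 0 than the 1455 higher genes, and the diagonal stripes at low level are genes with no or few counts in leaf pair 4.

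Nearly the whole MIA pathway was lower in leaf pair 4, and catharanthine synthase (CS), which closes the catharanthine skeleton, fell furthest among the described genes with at least 10 CPM in the higher group. CS had 0.661, 1.24 and 1.26 CPM in leaf pair 4, against 212, 301 and 290 CPM in leaf pair 1. The samples of leaf pair 4 were all under 2 CPM while those of leaf pair 1 were all above 200 CPM, and the log2 FC was -7.98 ± 0.711 (SE, adjusted p = 1.9e-05). Of the genes with a pathway role, 7 of 11 iridoid genes, 2 of 2 indole genes and 10 of 11 central genes were called lower and none higher, against 13.9% lower over all genes. The medians of their log2 FC were -1.49, -2.90 and -1.35, against -0.00 over all genes tested. Among the 9 late genes, which include PRX1 of the step after vindoline, 4 were lower (44.4%) and 1 higher (11.1%, against 8.41% of all genes). Their median was at the log2 FC of DAT, just short of the threshold.

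**Figure D2:**
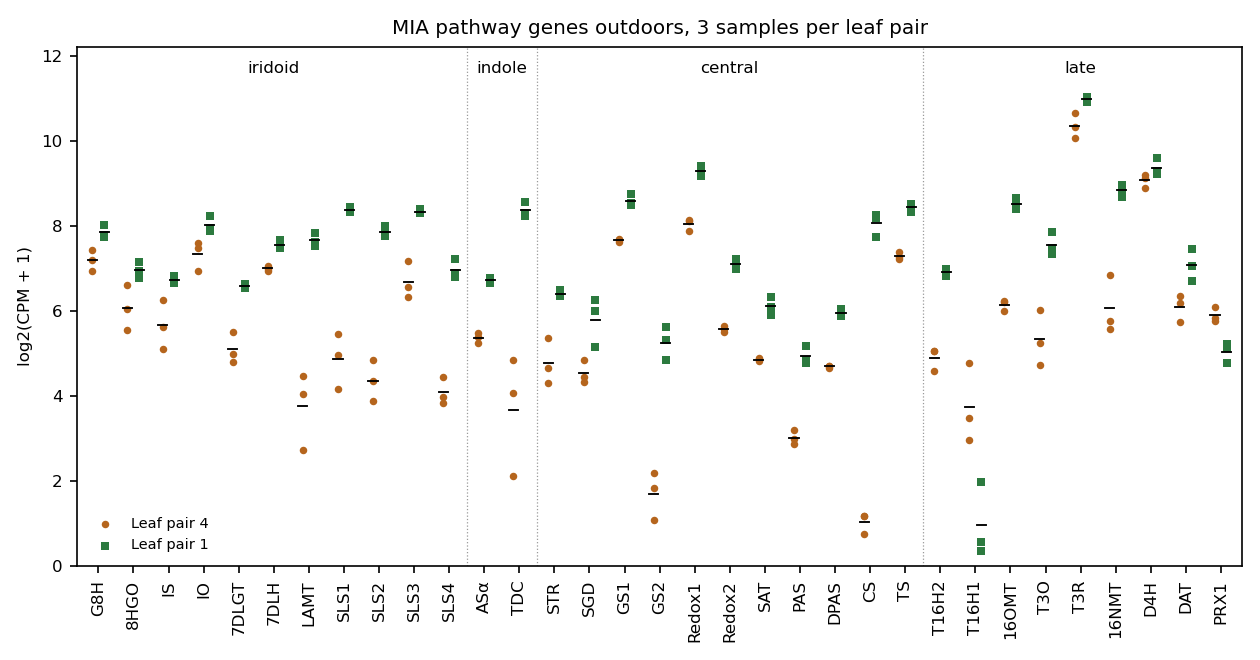
Levels of the MIA pathway genes outdoors, as log2(CPM + 1) on the vertical axis, ordered by pathway step. Each point is 1 plant (leaf pair 4 in brown on the left, leaf pair 1 in green on the right) and the bar is the mean of 3 samples. Leaf pair 4 lies below leaf pair 1 in every gene but T16H1 and PRX1, and the gap is widest at CS.

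Within the iridoid branch, the early steps placed in IPAP moved less than the late steps placed in the epidermis. Geraniol 8-hydroxylase (G8H), which commits geraniol to the branch, had 146, 169 and 121 CPM in leaf pair 4, against 258, 220 and 210 CPM in leaf pair 1, without overlap but with a log2 FC of only -0.66 ± 0.16, which was not called. The next enzymes 8HGO, IO and 7DLH had log2 FC of -0.85, -0.68 and -0.54 and were not called either. Iridoid synthase (IS), which closes the iridoid ring, was called at -1.01 ± 0.25, close to the threshold, and the glucosyltransferase 7DLGT at -1.49 ± 0.217. The call of IS ended without plant 3 of leaf pair 4 (log2 FC -0.77) and without plant 1 of that pair (-0.95) or plant 1 (-0.97) or 2 (-0.92) of leaf pair 1, whereas 8HGO was called at -1.17 without plant 2 of leaf pair 4. IS also lost its call by DESeq2 (-0.97), in the fit over 21 samples (-0.95) and with RLE scaling (-0.97). Together the 6 IPAP genes summed to 469 to 693 CPM in leaf pair 4 and 929 to 1109 CPM in leaf pair 1, with 2 of 6 called lower (33.3%, against 13.9% of all genes) and none at 0. That count became 1 of 6 wherever IS lost its call.

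The 8 epidermal genes were all called lower, against 13.9% of all genes tested. All 8 are also counted above among the iridoid, indole and central genes. Loganic acid O-methyltransferase (LAMT) had 5.62, 15.5 and 21.1 CPM in leaf pair 4, against 182, 227 and 195 CPM in leaf pair 1 (log2 FC -3.84 ± 0.356, adjusted p = 2.1e-05). Its highest value in leaf pair 4 was far below its lowest in leaf pair 1. Tryptophan decarboxylase (TDC), which makes tryptamine, had 3.3, 15.7 and 27.4 CPM in leaf pair 4, against 312, 377 and 300 CPM in leaf pair 1 (-4.41 ± 0.516, adjusted p = 5.7e-05). Plant 1 was the lowest in leaf pair 4 for both genes. The 4 copies of secologanin synthase, SLS1, SLS2, SLS3 and SLS4, had log2 FC of -3.47, -3.52, -1.61 and -2.95. These copies resemble each other, so their single levels are uncertain. Strictosidine synthase (STR), which joins tryptamine and secologanin, had 18.7, 39.7 and 24.1 CPM in leaf pair 4, against 80.2, 88.1 and 80.7 CPM in leaf pair 1 (-1.59 ± 0.241), and the strictosidine glucosidase SGD had a log2 FC of -1.35 ± 0.294. Over the list of 8, the median log2 FC was -3.21, the sum was 169 to 309 CPM in leaf pair 4 and 1577 to 1801 CPM in leaf pair 1, and none was at 0. In whole leaves, fewer cells of a type and less RNA per cell cannot be told apart, and the part that cell type composition has in these changes was not tested.

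Genes annotated to the epidermis on other grounds did not fall to that extent, but they are no clean measure of that tissue. Their median log2 FC of idioblast over mesophyll protoplasts was 1.45 in the fit over 21 samples. It was -3.67 for the 8 epidermal MIA genes and -0.03 for all genes tested. Whether the epidermis as a whole changed was not tested. Of these 17 tested genes of epidermis and cuticle, 4 were lower (23.5%, against 13.9% of all genes) and 2 higher (11.8%, against 8.41%). They had a median log2 FC of -0.19 and sums of 1114 to 1465 CPM in leaf pair 4 and 1684 to 2221 CPM in leaf pair 1. The 2 higher genes became 1 without plant 3 of either leaf pair. A 3-ketoacyl-CoA synthase (CATHA_20099), of the family that elongates fatty acids for waxes, had 28.3, 36.5 and 32 CPM in leaf pair 4, against 129, 147 and 147 CPM in leaf pair 1 (-2.13 ± 0.2). Its groups were well apart. A receptor-like kinase annotated as ACR4 (CATHA_10959), a regulator of epidermal cell identity in Arabidopsis, had a log2 FC of -1.38 ± 0.185, while the lipid transfer protein CATHA_14586 had 749, 892 and 1012 CPM in leaf pair 4 and 1280, 1495 and 1170 CPM in leaf pair 1 and was not called (-0.57 ± 0.148).

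Central genes, from STR and SGD, already given among the epidermal genes, to the catharanthine and tabersonine skeletons, were lower in every sample of leaf pair 4. The margin was widest in CS and GS2. Redox1 had 233, 273 and 279 CPM in leaf pair 4, against 635, 679 and 570 CPM in leaf pair 1 (log2 FC -1.26 ± 0.138), and Redox2, SAT and DPAS had log2 FC of -1.56, -1.29 and -1.30. These reductases and the acetyltransferase SAT act before and after stemmadenine. PAS, an oxidase of the same stretch, fell further, with 8.1, 6.92 and 6.2 CPM in leaf pair 4, against 27.6, 35.1 and 26.2 CPM in leaf pair 1 (-2.07 ± 0.173). Tabersonine synthase (TS), which draws on the same precursor as CS, had 152, 146 and 164 CPM in leaf pair 4, against 320, 362 and 355 CPM in leaf pair 1 (-1.17 ± 0.139). TS thus kept over 100 CPM in every sample of leaf pair 4 while CS stayed under 2 CPM in each. Of the 2 geissoschizine synthases, GS2 had a log2 FC of -3.98 ± 0.525 and GS1 one of -0.94 ± 0.109, which was called only with scaling by total counts (-1.03).

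The late genes, from tabersonine to vindoline and its coupling with catharanthine, were mixed. The O-methyltransferase 16OMT had 72, 73.6 and 62.4 CPM in leaf pair 4, against 332, 400 and 352 CPM in leaf pair 1 (-2.38 ± 0.137, adjusted p = 3.5e-06), and the N-methyltransferase 16NMT had 52.7, 46.3 and 113 CPM in leaf pair 4, against 409, 466 and 494 CPM in leaf pair 1 (-2.69 ± 0.289). Both sets were separated. The tabersonine 3-oxygenase T3O had a log2 FC of -2.17 ± 0.309. The last 2 enzymes of vindoline synthesis, D4H and DAT, were not called, although the groups were separated in both. D4H had 473, 551 and 579 CPM in leaf pair 4, against 588, 619 and 764 CPM in leaf pair 1 (-0.30 ± 0.129, adjusted p = 0.072), and DAT, with 52, 80.1 and 71.9 CPM in leaf pair 4, against 102, 130 and 175 CPM in leaf pair 1, passed the p threshold (adjusted p = 0.0024) and narrowly missed the fold threshold (SE 0.216). DAT was called lower in 6 alternatives, among them total-count scaling (-1.10) and 3 of the fits that left out a library (plants 2 and 3 of leaf pair 4, -1.13 and -1.04, and plant 1 of leaf pair 1, -1.17). The peroxidase PRX1, linked to the coupling of catharanthine and vindoline, had 53.3, 55.8 and 67.2 CPM in leaf pair 4, against 26, 33.7 and 36 CPM in leaf pair 1 (0.88 ± 0.189). It was not called here but was without plant 2 of leaf pair 1 (1.01), which makes the higher late genes 2.

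The 2 tabersonine 16-hydroxylases moved in opposite directions. T16H2, the one placed in leaf epidermis by earlier work on this plant, had 32.2, 32 and 22.9 CPM in leaf pair 4, against 121, 125 and 112 CPM in leaf pair 1 (-2.04 ± 0.149). T16H2 was called higher in idioblast than in mesophyll protoplasts in the fit over 21 samples. There its log2 FC was 8.52 (quasi-likelihood test, adjusted p = 3.1e-06). Sorted epidermal cells were not part of that fit, so the cell type behind the fall of T16H2 was not tested. T16H1 had 26.2, 10 and 6.79 CPM in leaf pair 4, against 2.9, 0.459 and 0.264 CPM in leaf pair 1 (3.59 ± 0.814, adjusted p = 0.0032). Plant 1 was the highest of both leaf pairs for T16H1, and the groups did not overlap.

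Among side branches of the pathway, 3 of 11 tested genes were lower (27.3%, against 13.9% of all genes) and 1 higher (9.09%, against 8.41%). The heteroyohimbine synthase HYS, which leads towards ajmalicine and its isomers, had 8.84, 7.63 and 10.1 CPM in leaf pair 4, against 128, 107 and 124 CPM in leaf pair 1 (-3.75 ± 0.331). The tetrahydroalstonine synthases THAS, THAS2 and THAS3 had log2 FC of -0.92, -0.71 and -0.86 and were not called. THAS was called without plant 2 of leaf pair 4 (-1.13) or plant 1 of leaf pair 1 (-1.05) and with scaling by total counts (-1.02). HL3 had 1 count over the 3 samples of leaf pair 4 and 243 counts over those of leaf pair 1, a level 194-fold lower in CPM (95% counting interval 34.5 to 7699). Its neighbour in name, HL4, was at the threshold (-1.01 ± 0.316) and lost its call without plant 2 or 3 (-0.89) of leaf pair 4 and without plant 2 (-0.94) or 3 (-0.99) of leaf pair 1. HL4 was also not called by DESeq2 (-0.97), in the fit over 21 samples (-0.95) or with RLE scaling (-0.97). The higher gene was TEX1, a tabersonine epoxidase, with 3.63, 1.15 and 0.587 CPM in leaf pair 4 and 64 counts in all, against 0.218, 0.0656 and 0.066 CPM and 5 counts in leaf pair 1. Of 7 tested transporters of MIAs and their precursors, 1 was lower and 1 higher (14.3% each, against 13.9% and 8.41% of all genes). The tonoplast transporter CrNPF2.9, which exports strictosidine from the vacuole, had 12.1, 16.6 and 26 CPM in leaf pair 4, against 39.4, 51.6 and 38 CPM in leaf pair 1 (-1.24 ± 0.24). It was no longer called without plant 2 of leaf pair 1 (-0.99). CrNPF2.5 had a log2 FC of 2.14 ± 0.681 at under 4 CPM in every sample. That call was lost without plant 1 of leaf pair 4 (1.72) or plant 3 of leaf pair 1 (2.08) and in the fit over 21 samples (2.19).

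Of the 16 tested transcription factors known from MIA regulation, 3 were lower and 3 higher (18.8% each, against 13.9% and 8.41% of all genes). ORCA4, an AP2/ERF activator of pathway genes, had 0, 0.71 and 0.503 CPM in leaf pair 4, against 14.3, 18.5 and 14.7 CPM in leaf pair 1 (-5.28 ± 0.499, adjusted p = 2.2e-05). Every sample of leaf pair 4 was below 1 CPM. Its relative ORCA3 had 1.65, 1.6 and 3.35 CPM in leaf pair 4 and 5.51, 1.84 and 2.11 CPM in leaf pair 1, with overlap and no call (-0.50 ± 0.958). The bHLH activators of the iridoid branch, Bis1 and Bis2, had log2 FC of -1.08 ± 0.339 and -1.44 ± 0.289. Bis1 lost its call without plant 1 (-0.95) or 3 (-0.78) of leaf pair 4 or plant 3 of leaf pair 1 (-1.02), and both lost it in the fit over 21 samples.

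The higher regulators were ZCT3, ZCT1 and MYC. The zinc finger proteins of the ZCT family are known as repressors of TDC and STR promoters in cell cultures. ZCT3 had 75.9, 154 and 85.9 CPM in leaf pair 4, against 4.79, 1.57 and 3.89 CPM in leaf pair 1 (4.95 ± 1.18, adjusted p = 0.0047), and ZCT1 had 2.48, 4.17 and 3.52 CPM in leaf pair 4, against 0.435, 0.197 and 0.396 CPM in leaf pair 1 (3.28 ± 0.679). DESeq2 gave ZCT3 nearly the same fold (4.98) but no adjusted p, so the gene could not be called there. In the indoor plants of the same fit, ZCT3 varied widely in leaf pair 1 (20.5 ± 32.5 CPM, SD, n = 3). MYC, a bHLH factor of jasmonate signalling, had 226, 257 and 204 CPM in leaf pair 4, against 148, 95.2 and 93.1 CPM in leaf pair 1 (1.03 ± 0.236). Its call ended without plant 2 of leaf pair 4 (0.94) or plant 3 of leaf pair 1 (0.91) and with scaling by total counts (0.94).

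Marker genes of idioblasts split in both directions. Of the 25 markers tested, 6 were lower (24%, against 13.9% of all genes tested), 4 higher (16%, against 8.41%) and 15 not called. By size of change at 10 CPM or more, the leading markers were all lower. The 25 markers had a median log2 FC of -0.51 and sums of 1092 to 1371 CPM in leaf pair 4 and 1450 to 1975 CPM in leaf pair 1. None was at 0 in either leaf pair. Without plant 1 of leaf pair 1, 10 were lower. A cytochrome P450 annotated as premnaspirodiene oxygenase-like (CATHA_29024) had 6.53, 13.3 and 14.7 CPM in leaf pair 4, against 27.5, 46.8 and 59 CPM in leaf pair 1 (-1.95 ± 0.324), and an aromatic amino acid decarboxylase (CATHA_32840) had a log2 FC of -1.83 ± 0.214. Of 76 tested transcription factors taken from a list of factors raised in idioblasts, 17 were higher (22.4%) and 11 lower (14.5%), with 11 higher without plant 1 of leaf pair 4. Seen from the other side, 13.2% of the genes higher in leaf pair 4 were called higher and 9.76% lower in idioblast than in mesophyll protoplasts, and of the genes lower in leaf pair 4 these shares were 8.91% and 9.54%, where 6.74% and 8.91% of all leaf genes tested were so called. Over the 18339 genes of that protoplast fit, 7.21% were higher and 9.12% lower in idioblasts. The median idioblast log2 FC was 0.07 for the higher, 0.00 for the lower and -0.03 for all genes.

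**Figure D3:**
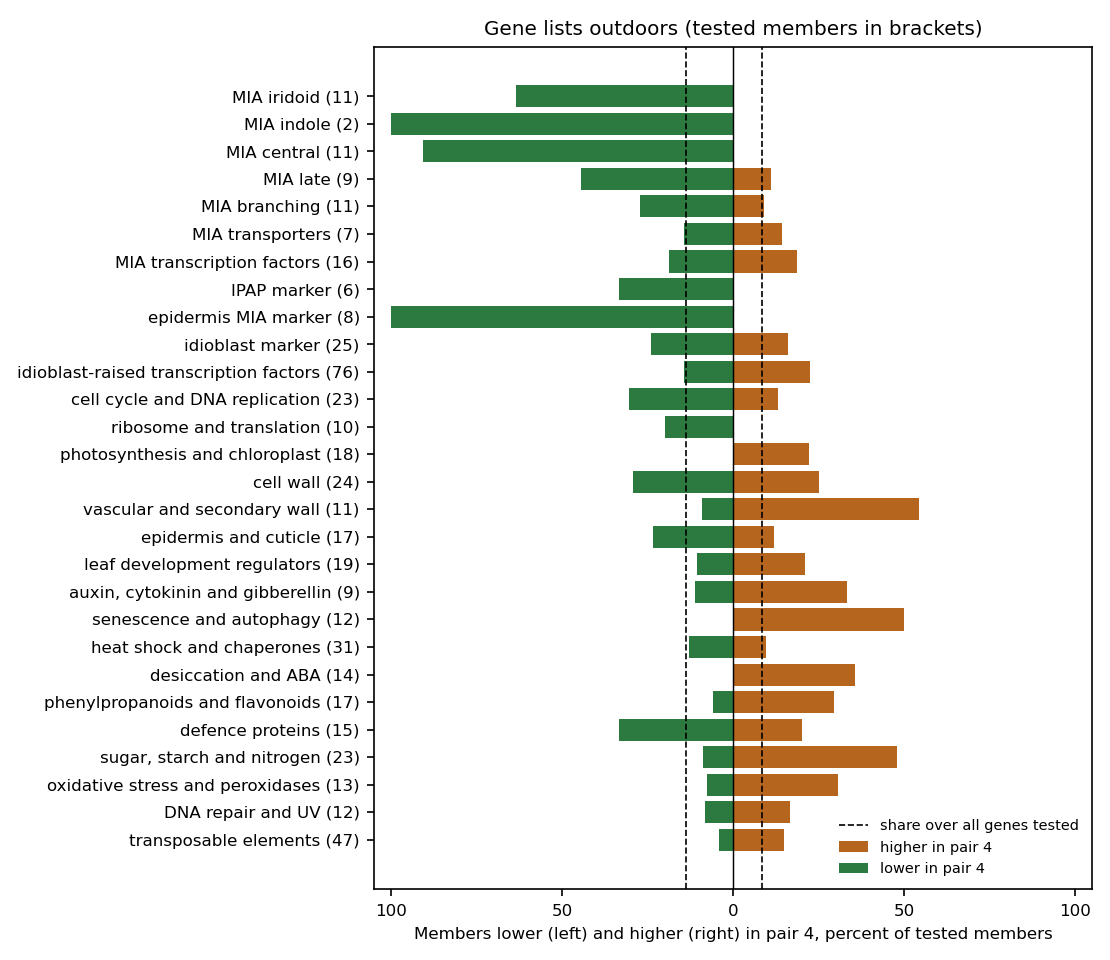
Share of each gene list called in leaf pair 4 against leaf pair 1 outdoors. Bars to the right (brown) give the percent of tested members higher and bars to the left (green) the percent lower, with the number of tested members in brackets, and the dashed lines mark 8.41% and 13.9%, the shares over all genes tested. Of the 1156 described genes tested, 217 were higher and 168 lower, which the lines do not show. Epidermal MIA genes, which are also counted in the iridoid, indole and central lists, reach 100% lower. The lists of vascular tissue, senescence and sugar lean to the right.

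Genes of cell division were among the deepest decreases, although the list as a whole was divided. A histone gene (CATHA_18851) had 0.165, 0.798 and 1.51 CPM in leaf pair 4, against 38.3, 67.2 and 81.1 CPM in leaf pair 1 (-6.23 ± 0.664, adjusted p = 3.6e-05). The dUTP hydrolase CATHA_25955, which keeps uracil out of new DNA, had 1.16, 0.532 and 2.6 CPM in leaf pair 4, against 32.8, 36.5 and 27.6 CPM in leaf pair 1 (-4.48 ± 0.487). In both genes every sample of leaf pair 1 exceeded every sample of leaf pair 4 by over 10-fold. Condensin complex subunit 3 (CATHA_12221), which compacts chromosomes, and the large subunit of DNA primase (CATHA_21698), which starts new strands, had log2 FC of -3.35 ± 0.339 and -2.96 ± 0.308. Of 23 tested genes of cell cycle and DNA replication, 7 were lower (30.4%, against 13.9% of all genes) and 3 higher (13%, against 8.41%). Their median was -0.68, and 1 was higher without plant 3 of leaf pair 1. The list nevertheless summed to more in leaf pair 4 (982 to 1202 CPM) than in leaf pair 1 (754 to 829 CPM). The genes named here are its largest changes, all of them decreases. A telomerase reverse transcriptase (CATHA_37546), which extends chromosome ends, had 7.93, 4.17 and 10.1 CPM in leaf pair 4, against 21.4, 24.3 and 27 CPM in leaf pair 1 (-1.71 ± 0.299). It sits in a list of 47 tested genes annotated to transposable elements, of which 7 were higher (14.9%) and 2 lower (4.26%), with 4 higher without plant 3 of either leaf pair.

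Other large decreases were in genes of varied description and in genes without one. A GDSL esterase/lipase (CATHA_34276), of a family that acts on lipid esters, had 0.909, 0.266 and 4.61 CPM in leaf pair 4, against 244, 263 and 226 CPM in leaf pair 1 (-6.97 ± 0.749). Plant 3 was the highest of leaf pair 4 and still lay under 5 CPM. A member of the chalcone-flavanone isomerase family (CATHA_19743) had 0.248, 0.443 and 0.838 CPM in leaf pair 4, against 36.6, 38.4 and 41 CPM in leaf pair 1 (-6.22 ± 0.557), and the genes described as a tetratricopeptide protein (CATHA_19649), myosin-2 (CATHA_10164) and a meiosis-specific nuclear structural protein (CATHA_9693) had log2 FC of -7.31, -6.39 and -5.86. Purple acid phosphatase CATHA_19097 had 0.826, 0.621 and 0.922 CPM in leaf pair 4, against 34.4, 28 and 4.22 CPM in leaf pair 1 (-4.79 ± 0.871), where plant 3 of leaf pair 1 was the lowest. Of the genes without a description, CATHA_2285 had no count in leaf pair 4 and 25, 27.2 and 29.7 CPM in leaf pair 1 (1210 counts), at least 322-fold lower when the group total is set to 3 counts, the upper limit that no count allows. CATHA_30038 had 1 count in leaf pair 4 and 1478 in leaf pair 1.

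Cell wall genes included the largest increase of a described gene, by the same minimum of 10 CPM, and several large decreases. A xyloglucan endotransglucosylase/hydrolase (CATHA_3498), of the enzymes that cut and rejoin xyloglucan chains, had 4.96, 13.7 and 37.1 CPM in leaf pair 4, against 0.29, 0.197 and 0.594 CPM in leaf pair 1 (5.65 ± 0.943, adjusted p = 0.00049). Plant 3 was the highest in both leaf pairs. A second member, CATHA_12762, had 16.2, 13.1 and 8.8 CPM in leaf pair 4, against 1.67, 0.328 and 0.726 CPM in leaf pair 1 (3.82 ± 0.512). The structural glycine-rich protein CATHA_19049 had 1.57, 1.95 and 2.77 CPM in leaf pair 4, against 20, 18 and 17.7 CPM in leaf pair 1 (-3.14 ± 0.295), and CATHA_18152, annotated as EXORDIUM like 3, had a log2 FC of -3.11 ± 0.263. Of 24 tested cell wall genes, 6 were higher (25%, against 8.41% of all genes) and 7 lower (29.2%, against 13.9%). Their median was -0.05, and 3 were higher without plant 3 of leaf pair 1. Of all 1156 described genes tested, 217 were higher and 168 lower, so the share of higher genes in such a list is less unusual than it looks beside 8.41%.

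Vascular and secondary wall genes leaned to the higher side, with 6 of 11 tested genes higher (54.5%, against 8.41% of all genes) and 1 lower (9.09%, against 13.9%). Their median log2 FC was 1.23, and 2 were lower without plant 1 of leaf pair 4. Phloem protein 2-9 (CATHA_18236), a lectin of sieve elements, had 45.7, 47.9 and 52.3 CPM in leaf pair 4, against 11.7, 8 and 12.5 CPM in leaf pair 1 (2.18 ± 0.374). The xylan glucuronosyltransferase-like gene IRX7 (CATHA_23075) and a glucuronoxylan 4-O-methyltransferase (CATHA_22522), both of secondary wall xylan, had log2 FC of 1.39 ± 0.199 and 1.23 ± 0.314, while a xylogen-like protein (CATHA_18996) had 12.5, 9.22 and 11.7 CPM in leaf pair 4 and 34.7, 35 and 34.1 CPM in leaf pair 1 (-1.64 ± 0.172). The list summed to 172 to 195 CPM in leaf pair 4 and 138 to 150 CPM in leaf pair 1. Of its 13 genes, 2 had no count in leaf pair 4 and 1 had none in leaf pair 1.

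In the lists of senescence, desiccation and sugar and nitrogen use, more members were higher than lower. Of 12 tested senescence and autophagy genes, 6 were higher (50%, against 8.41% of all genes) and none lower (against 13.9%), with a median of 0.85. A NAC transcription factor (CATHA_26934), of a family with several known regulators of senescence, had 40.8, 34.4 and 26 CPM in leaf pair 4, against 1.89, 0.59 and 0.462 CPM in leaf pair 1 (5.12 ± 0.606, adjusted p = 6.1e-05), with wide separation. An ABA 8'-hydroxylase (CATHA_10059), which breaks down abscisic acid, had a log2 FC of 1.70 ± 0.435, and the chloroplast protease FTSH 6 (CATHA_22873) one of 1.46 ± 0.364. Chlorophyll b reductase (CATHA_17871), the first enzyme of chlorophyll b breakdown, had 452, 399 and 536 CPM in leaf pair 4, against 235, 234 and 216 CPM in leaf pair 1 (1.02 ± 0.153). Its fold was just past the threshold and fell short of it without plant 3 of leaf pair 4 (0.90) or plant 3 of leaf pair 1 (0.98) and with scaling by total counts (0.92).

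Of 14 tested genes of desiccation and ABA response, 5 were higher (35.7%, against 8.41% of all genes) and none lower (against 13.9%), with a median of 0.76. The ABA 8'-hydroxylase CATHA_10059 is in this list and in that of senescence. The low-temperature-induced 65 kDa protein CATHA_33060 had 8.18, 9.85 and 14.8 CPM in leaf pair 4, against 1.09, 1.18 and 0.726 CPM in leaf pair 1 (3.45 ± 0.446). An abscisic stress-ripening protein (CATHA_18761) had 81, 112 and 125 CPM in leaf pair 4, against 20.3, 23.8 and 35.6 CPM in leaf pair 1 (1.99 ± 0.257). Both genes were higher in every plant.

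Of 23 tested genes of sugar, starch and nitrogen, 11 were higher (47.8%, against 8.41% of all genes) and 2 lower (8.7%, against 13.9%), with a median of 1.02. The beta-amylases, enzymes of starch breakdown, went both ways. CATHA_23527 had 246, 186 and 200 CPM in leaf pair 4, against 42.8, 26.9 and 20.9 CPM in leaf pair 1 (2.80 ± 0.523), and CATHA_18104, one of the idioblast markers, had 89, 106 and 114 CPM in leaf pair 4, against 235, 293 and 361 CPM in leaf pair 1 (-1.53 ± 0.225). In nitrate uptake, a high-affinity nitrate transporter (CATHA_10418) had 155, 159 and 48.4 CPM in leaf pair 4, against 18.3, 10.1 and 7.26 CPM in leaf pair 1 (3.35 ± 0.589). Nitrate reductase (CATHA_2546), which reduces the nitrate taken up, had 1018, 1104 and 139 CPM in leaf pair 4, against 275, 284 and 23.2 CPM in leaf pair 1. Plant 3 was the lowest in both leaf pairs, so the groups overlapped and the gene was not called (1.96 ± 0.965, adjusted p = 0.11), though it was higher in leaf pair 4 of each plant and was called with the plant as a block (2.13) and in the fit over 21 samples (2.02).

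Genes of photosynthesis and the chloroplast were detected in both leaf pairs. Of 18 tested genes, 4 were higher (22.2%, against 8.41% of all genes) and none lower (against 13.9%), with 2 higher without plant 3 of leaf pair 1. Their median was 0.46, with sums of 1501 to 1606 CPM in leaf pair 4 and 853 to 1108 CPM in leaf pair 1. Of the 4 higher genes, 2 (chlorophyll b reductase CATHA_17871 and FTSH 6, CATHA_22873) were also counted among the senescence genes. Of 20 genes in the list, 1 had no count in leaf pair 4 and none was without counts in leaf pair 1. Photosystem II protein D1 (CATHA_3939), listed as a fragment, had 25.7, 22.7 and 23.2 CPM in leaf pair 4, against 7.9, 11.5 and 6.2 CPM in leaf pair 1 (1.48 ± 0.315). Of 10 tested ribosome and translation genes, 2 were lower (20%) and none higher, with log2 FC of -1.52 ± 0.203 for L30e (CATHA_6159) and -1.26 ± 0.168 for P3 (CATHA_11839).

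Among stress and defence genes, the heat shock and chaperone list was called at shares near those over all genes tested. Of its 31 tested genes, 3 were higher (9.68%, against 8.41% of all genes) and 4 lower (12.9%, against 13.9%), with a median of -0.07. A class II small heat shock protein (CATHA_20705) had 7.76, 13.9 and 3.77 CPM in leaf pair 4, against 110, 37.1 and 28.1 CPM in leaf pair 1 (-2.78 ± 0.558), and the heat stress transcription factor A-3 (CATHA_36735) had 30.1, 35.2 and 27.5 CPM in leaf pair 4, against 11.7, 6.62 and 7.32 CPM in leaf pair 1 (1.86 ± 0.328). Of 13 tested genes of oxidative stress, 4 were higher (30.8%) and 1 lower (7.69%), with a median of 0.80. They were led by 2 genes annotated as Oxidative stress 3, CATHA_16439 (2.44 ± 0.477) and CATHA_29428 (1.86 ± 0.274). Of 15 tested defence genes, 3 were higher (20%) and 5 lower (33.3%), with a median of 0.00. Patatin (CATHA_26149), a lipid acyl hydrolase, had 14.1, 18.7 and 8.72 CPM in leaf pair 4, against 1.09, 0.394 and 0.33 CPM in leaf pair 1 (4.52 ± 0.694), while isochorismate synthase (CATHA_29269), of the salicylic acid route, had a log2 FC of -1.67 ± 0.209. Of 17 tested phenylpropanoid genes, 5 were higher (29.4%) and 1 lower (5.88%), with 3 higher when libraries were scaled by total counts. A gene annotated as flavonoid 3-hydroxylase (CATHA_12622) had 47.9, 47.5 and 44.5 CPM in leaf pair 4, against 14.2, 11.3 and 11.1 CPM in leaf pair 1 (1.94 ± 0.241).

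Of 12 tested genes of DNA repair and UV response, 2 were higher (16.7%, against 8.41% of all genes) and 1 lower (8.33%, against 13.9%). The deoxyribodipyrimidine photolyase CATHA_11842, which repairs UV lesions of DNA with light, had 10.2, 14.5 and 8.55 CPM in leaf pair 4, against 5.29, 4.92 and 4.49 CPM in leaf pair 1 (1.18 ± 0.249; 0.94 and not called without plant 2 of leaf pair 4, which leaves 1 higher). The single lower gene was not called with the plant as a block, in the fit over 21 samples or in 5 of the 6 fits without a library, plant 2 of leaf pair 4 being the exception. Of 19 tested regulators of leaf development, 4 were higher (21.1%) and 2 lower (10.5%), with a median of -0.27 and 1 lower without plant 2 of leaf pair 1. Knotted-1-like 3 (CATHA_27845), a class II KNOX factor by its Arabidopsis namesake, had 40.7, 63.2 and 61.6 CPM in leaf pair 4, against 7.83, 7.08 and 9.57 CPM in leaf pair 1 (2.75 ± 0.379). YABBY 5 (CATHA_21134), of a family that sets the abaxial side of leaves, was not called (-0.79 ± 0.151). Of 9 tested genes of auxin, cytokinin and gibberellin, 3 were higher (33.3%) and 1 lower (11.1%). The lower one was an auxin transporter (CATHA_21964, -1.10 ± 0.374) that lost its call without plant 1 (-0.84) or 2 of leaf pair 4 or plant 2 (-0.94) or 3 (-0.94) of leaf pair 1. It also lost it in the fit over 21 samples (-1.05) and without the low-count filter (-1.11).

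Further large increases were also in genes of varied description and in genes without one. A mitogen-activated protein kinase kinase kinase of the NPK1 type (CATHA_20233) had 72.8, 46 and 17 CPM in leaf pair 4, against 5.66, 2.16 and 1.12 CPM in leaf pair 1 (3.94 ± 0.63). The order of the plants was the same in both leaf pairs. The nematode resistance protein-like HSPRO2 (CATHA_29872) had a log2 FC of 3.43 ± 0.585, and a D4H-like dioxygenase (CATHA_32549) had 16.9, 8.78 and 5.45 CPM in leaf pair 4, against 1.89, 0.787 and 0.66 CPM in leaf pair 1 (3.23 ± 0.541). Of the genes without a description, CATHA_22036 had 6.28, 14.3 and 26.8 CPM in leaf pair 4, against 0.0725, 0.0656 and 0.132 CPM in leaf pair 1 (7.30 ± 1.24), and CATHA_6330 had 41.6, 98 and 164 CPM in leaf pair 4, against 0.943, 1.77 and 1.19 CPM in leaf pair 1 (6.26 ± 0.629).

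The same comparison indoors shows how much of the change with leaf age was shared between growth conditions. Indoors, 1995 genes (11.5% of those tested) were higher and 1862 (10.8%) lower in leaf pair 4, together 22.3%, and 1484 and 2513 when libraries were scaled by total counts. Of the 1455 genes higher outdoors, 1071 (73.6%) were also called higher indoors, which is 53.7% of the indoor list. Of the 2412 genes lower outdoors, 1485 (61.6%) were also called lower indoors, which is 79.8% of that list. Calls in opposite directions were made in 7 of the higher and 6 of the lower genes.

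**Figure D4:**
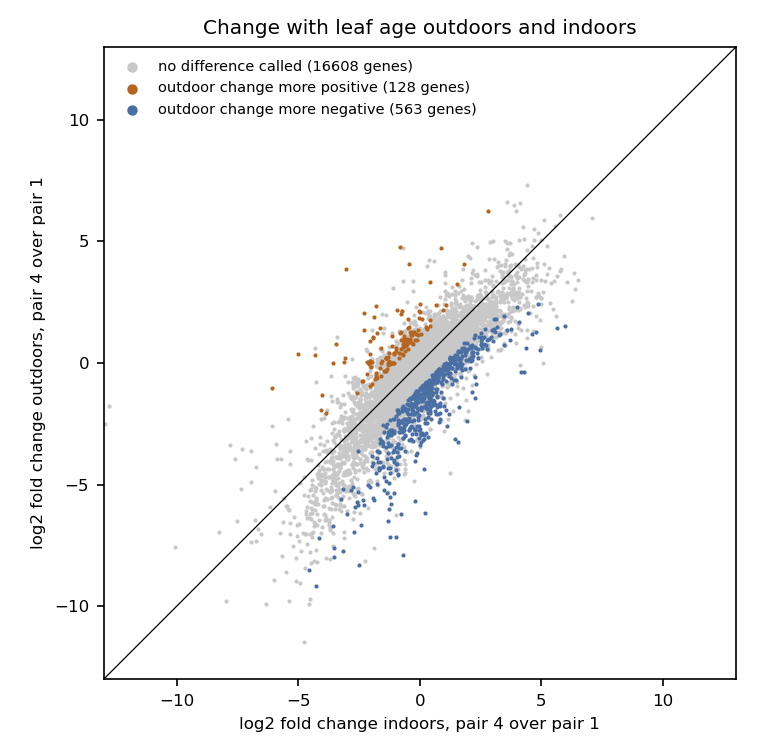
Log2 FC of leaf pair 4 over leaf pair 1, outdoors on the vertical axis and indoors on the horizontal axis, for the 17299 genes tested. Coloured points are the 691 genes whose change differed between growth conditions, 128 more positive (brown) and 563 more negative (blue) outdoors. Most genes lie along the diagonal, and the blue points are the more numerous.

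The difference between the outdoor and the indoor change was tested as an interaction, and 691 genes (3.99% of those tested) were called, 128 (0.74%) with a more positive and 563 (3.25%) with a more negative change outdoors. This count depended on single libraries and on scaling. It was 219 (60 and 159) without plant 2 of leaf pair 1 outdoors, 353 and 338 without plants 1 and 2 of leaf pair 4, 445 and 387 without plants 1 and 3 of leaf pair 1, and 887 without plant 3 of leaf pair 4. With scaling by total counts it was 159 more positive and 333 more negative, and the median difference over all genes tested was 0.04, against -0.10 with the scaling used here. Among the 2412 genes lower outdoors, 334 had a more negative and 4 a more positive change outdoors than indoors, and among the 1455 higher genes 46 had a more positive and 25 a more negative one.

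Central MIA genes were prominent in this difference, with 6 of 11 called more negative outdoors, against 3.25% of all genes tested. Of the other parts, 2 of 11 iridoid, 1 of 2 indole and 0 of 9 late genes were so called. PAS had 7.07 ± 0.955 CPM in leaf pair 4 and 29.6 ± 4.78 CPM in leaf pair 1 outdoors, and 61.7 ± 11.4 CPM in leaf pair 4 and 34.4 ± 3.29 CPM in leaf pair 1 indoors (SD, n = 3 each). The groups were separated downwards outdoors, where PAS was called lower, and it was not called indoors (0.84). The change outdoors differed from that indoors by -2.91 ± 0.233 on the log2 scale (SE, adjusted p = 0.00023). TS had 154 ± 9.37 CPM in leaf pair 4 and 346 ± 22.7 CPM in leaf pair 1 outdoors, and 615 ± 106 CPM in leaf pair 4 and 481 ± 48.4 CPM in leaf pair 1 indoors (difference -1.52 ± 0.194). Redox2, SAT and Redox1 had differences of -1.59, -1.28 and -1.09, with indoor log2 FC of 0.03, -0.01 and -0.18. Redox1 lost this call without plant 2 of leaf pair 1 (-0.89) and with scaling by total counts (-0.95). In the fit over 21 samples, Redox1 (-0.96) and SAT (-1.16) were not called.

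CS was lower in leaf pair 4 in both conditions, with log2 FC of -7.98 outdoors and -3.54 indoors. Indoors it had 29.4 ± 28.1 CPM in leaf pair 4 and 343 ± 79.2 CPM in leaf pair 1, so that its levels in leaf pair 4 varied widely between the indoor plants. The difference of -4.44 ± 0.846 was called, but not with the plant as a block (-4.08) and not without plant 1 of leaf pair 4 (-4.19). SLS2, TDC and LAMT had differences of -2.72, -2.75 and -1.86. The call of SLS2 held in every alternative. That of TDC was lost with the plant as a block (-3.01), without the low-count filter (-2.75), without plant 2 of leaf pair 4 (-2.76) and without plant 1, 2 or 3 of leaf pair 1 (-2.79, -2.50 and -2.81). That of LAMT was lost without plant 2 of leaf pair 4 (-1.94) and without plant 1, 2 or 3 of leaf pair 1 (-1.93, -1.63 and -1.89). It was also lost in the fit over 21 samples (-1.74), without the low-count filter (-1.86) and with scaling by total counts (-1.72). HYS, T16H1 and D4H showed no called difference.

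**Figure D5:**
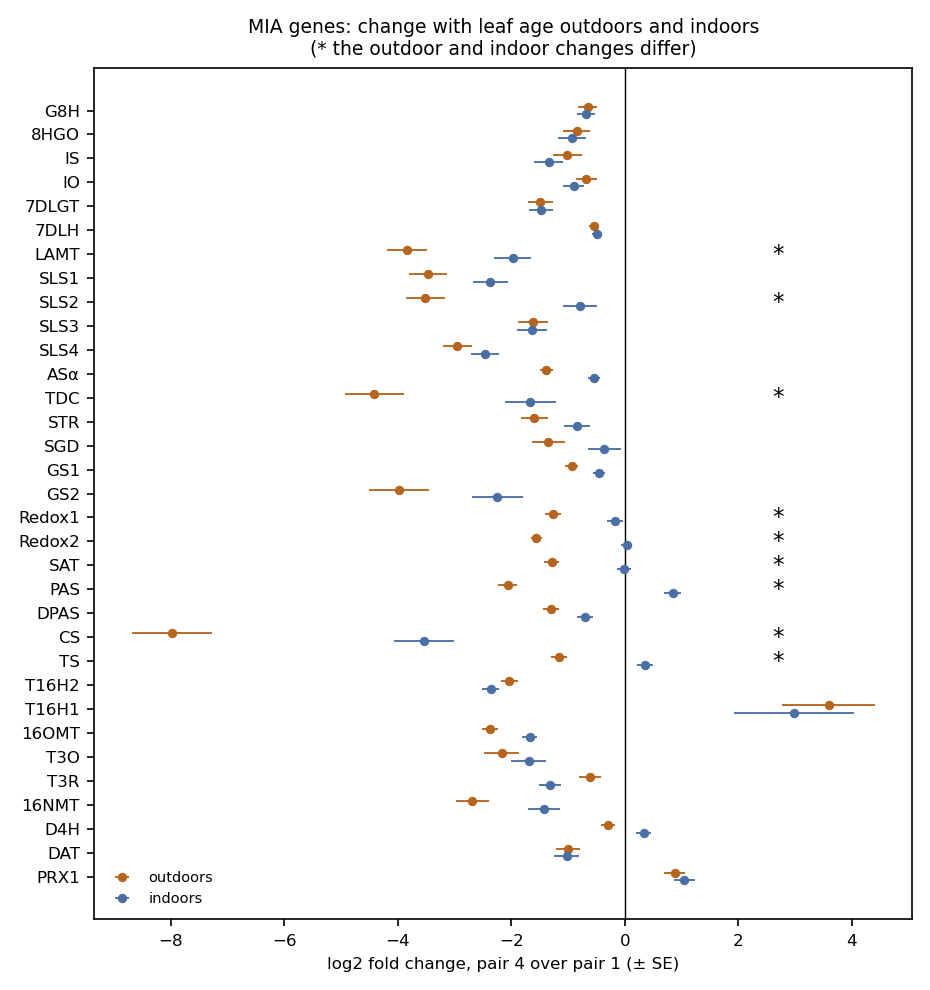
Change with leaf age of the MIA pathway genes outdoors (brown, upper point of each gene) and indoors (blue), as log2 FC of leaf pair 4 over leaf pair 1 with its SE from the fit of 3 samples per group. Asterisks mark genes whose outdoor and indoor changes differed by 1 or more with an adjusted p not above 0.05. The marked genes lie mostly in the central part, and in each of them the outdoor point lies further to the left.

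Leaf pairs 2 and 3 of the outdoor plants give the ages in between. These Nanopore libraries held 282946 to 732948 estimated counts and were divided by their totals, without scaling for library composition. The 10 most counted genes took 33.2%, 38% and 38.9% of counts in leaf pair 2 and 42.8%, 37.5% and 49.9% in leaf pair 3. What this does to the shares of genes above and below was not tested. Levels were set only against each other and not tested either. Of the genes lower in leaf pair 4 with at least 30 counts over the 6 samples, 237 of 591 (40.1%) had every sample of leaf pair 3 below every sample of leaf pair 2 and 0 had every sample above, where 9.6% of 6831 tested genes were below and 2.23% above. Of the genes higher in leaf pair 4, 50 of 544 (9.19%) were above in every sample and 3 below. CS had 3.68, 11 and 4.09 CPM in leaf pair 3, against 120, 103 and 72.9 CPM in leaf pair 2. The gap between these 2 neighbouring leaf pairs was complete for CS. LAMT had 5.53, 19.8 and 12.3 CPM in leaf pair 3, against 49.5, 64.8 and 43.7 CPM in leaf pair 2, and SLS1 had 5.53, 13.2 and 13.6 CPM in leaf pair 3, against 63.6, 74.3 and 69.2 CPM in leaf pair 2. TS, at 99.5, 134 and 135 CPM in leaf pair 3 and 205, 183 and 198 CPM in leaf pair 2, was separated too. D4H, at 79.2, 123 and 60 CPM in leaf pair 3 and 180, 95.3 and 87.4 CPM in leaf pair 2, overlapped, and so did HYS, at 31.3, 28.6 and 30 CPM and 46, 19.1 and 27.3 CPM. ZCT3 had 40.5, 55.1 and 46.4 CPM in leaf pair 3, against 28.3, 26.7 and 23.7 CPM in leaf pair 2. Its samples of leaf pair 3 were all the higher ones. The histone CATHA_18851 had 1.84, 2.2 and 4.09 CPM in leaf pair 3, against 28.3, 66.7 and 67.4 CPM in leaf pair 2.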

How the data were processed

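RNA of whole leaves was sequenced with Illumina TruSeq libraries for leaf pairs 1 and 4. Trimming (Trimmomatic 0.39) and alignment (HISAT2, genome v2 of the species) were done by the authors, who deposited whole-number counts for each gene of their IDIO+ annotation, made with featureCounts 2.0.1. The values are not normalized. No strand option is given in the sources used here, so overlapping, antisense and closely similar genes are uncertain. For Nanopore libraries of leaf pairs 2 and 3 the authors deposited estimated counts (minimap2, Salmon 1.4.0), which were rounded here and divided by each library's total.

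The low-count filter was filterByExpr and the scaling TMM. Tests were two-sided quasi-likelihood F tests of edgeR 4.0.16 (robust glmQLFit after estimateDisp) in R 4.3.3. The 12 Illumina samples of leaf pairs 4 and 1, outdoors and indoors (4 groups of 3), shared 1 estimate of the spread. SE is the log2 FC over the root of F. CPM used the TMM-scaled library size. DESeq2 1.42.0, a fit over 21 Illumina samples with the protoplasts, a replicate block, other scalings, no filter, the 6 outdoor samples alone and leaving out each outdoor sample were the alternatives. The idioblast to mesophyll comparison used the fit over 21 samples (18339 genes). On simulated counts for 17088 genes, 31.3% of genes changed 1.5-fold, 68.7% of those changed 2-fold and 83.3% of those changed 4-fold passed the adjusted p, none with the wrong sign. No pair of replicates agreed within sampling noise.

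Samples with equal numbers came from the same plant, by the column headers and the study's methods. Deviations from the group means correlated at 0.324 to 0.443 between samples of 1 plant outdoors and at -0.282 to -0.093 between different plants. Indoors they correlated at -0.00137 to 0.259 within plants and at -0.264 to 0.0251 between plants, so these ranges overlapped. Deviations within a group cancel out by construction, so positive values within plants go with negative ones between plants.

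Named genes are, in each direction, the 15 largest changes among described, called genes whose groups were separated and whose higher group averaged 10 CPM or more, the MIA genes of the study, up to 4 leading members of each gene list and 2 undescribed genes per direction. Not all are described. Descriptions covered 1156 of the 17299 genes tested, mainly genes raised in idioblasts, and none of the gene IDs matched the RefSeq table, so no sequence or position is given. Of the 1156 described genes, 217 were higher and 168 lower outdoors. The shares of the gene lists are set beside those of all genes tested and not beside those of described genes. The members and gene lists were chosen with earlier results of these data known. No list was tested as a set. Intervals and floors cover counting error only. The leaves of the cell sorting experiment and the indoor Nanopore samples were not used.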

Additional observations from a re-analysis of the deposited data

Results flagged for a closer look

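For 18 of the genes described, the change with leaf age differed between outdoors and indoors by the interaction term of edgeR's quasi-likelihood test. Values are outdoor minus indoor log2 FC, with Benjamini-Hochberg adjusted p. The MIA genes were HL3 (-5.96, adjusted p = 0.014), CS (-4.44, adjusted p = 0.015), PAS (-2.91, adjusted p = 0.00023), TDC (-2.75, adjusted p = 0.031), SLS2 (-2.72, adjusted p = 0.0082), LAMT (-1.86, adjusted p = 0.035), Redox2 (-1.59, adjusted p = 0.00036), TS (-1.52, adjusted p = 0.0033), SAT (-1.28, adjusted p = 0.0042) and Redox1 (-1.09, adjusted p = 0.012). In PAS, TS and Redox2 the outdoor change was negative (-2.07, -1.17 and -1.56) and the indoor change positive (0.84, 0.35 and 0.03). Indoors, PAS (adjusted p = 0.00095) and TS (adjusted p = 0.046) passed the p threshold upwards but not the fold threshold, so none was called.

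Genes outside the MIA pathway with a more negative change outdoors were the GDSL esterase/lipase CATHA_34276 (-4.25, adjusted p = 0.02), the glycine-rich cell wall protein CATHA_19049 (-2.77, adjusted p = 0.004) and EXORDIUM like 3, CATHA_18152 (-1.47, adjusted p = 0.031). CATHA_34276 was not called with the plant as a block (-4.10), nor without plant 1 (-3.91) or 2 (-3.75) of leaf pair 4 or plant 2 of leaf pair 1 (-4.05). CATHA_18152 was not called without plant 1 (-1.30) or 2 (-1.46) of leaf pair 4 or plant 2 (-1.40) or 3 (-1.26) of leaf pair 1. Nor was it called in the fit over 21 samples (-1.34) or with scaling by total counts (-1.32).

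Genes with a more positive change outdoors were the undescribed CATHA_6330 (3.47, adjusted p = 0.03), nodulin-related protein 1, CATHA_26987 (1.74, adjusted p = 0.045), the AP2 transcription factor CATHA_34375 (1.36, adjusted p = 0.015), the J domain protein CATHA_15979 (1.20, adjusted p = 0.016) and IRX7, CATHA_23075 (1.08, adjusted p = 0.041). CATHA_34375 had 18.1 ± 2.89 CPM in leaf pair 4 and 5.29 ± 0.537 CPM in leaf pair 1 outdoors, and 7.25 ± 0.129 CPM in leaf pair 4 and 5.47 ± 1.28 CPM in leaf pair 1 indoors (SD, n = 3 each). Its call held in every alternative. CATHA_23075 was not called with the plant as a block (1.07), in the fit over 21 samples (1.20) or without any of 5 outdoor libraries (0.93 to 1.18), plant 3 of leaf pair 4 being the exception. CATHA_15979 lost its call without plant 3 of leaf pair 4 (0.99). CATHA_6330 lost it without plant 2 of leaf pair 4 (3.49) or plant 1, 2 or 3 of leaf pair 1 (3.29, 3.89 and 3.40), and CATHA_26987 without plant 2 (1.53) or 3 (1.66) of leaf pair 4 or plant 1, 2 or 3 of leaf pair 1 (1.74, 1.83 and 1.77). Both also lost it without the low-count filter (3.47 and 1.74).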

How the results depend on the processing

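Outdoors, the counts stayed within 1.5 times, at 1272 to 1543 higher and 2164 to 2638 lower genes over the other tools, samples, filters and scalings, and 1269 to 1618 higher and 2172 to 2541 lower without single libraries. Of 110 genes described, 92 kept their direction and their side of the threshold in all alternatives, 37 values lost and 15 gained the threshold and 1 changed sign, ORCA3 (-0.94 to 0.16 without single libraries, positive without plant 1 of leaf pair 1). With the replicate block the counts were 1483 higher and 2425 lower, and with the block in the 6 outdoor samples alone, an alternative chosen after seeing the data, 1447 and 2306. The block gained the call of nitrate reductase, ended the interaction calls of CS, TDC, CATHA_34276 and CATHA_23075 and changed no other call among these 110 genes. It also ended the lower call in the DNA repair list (0 for 1), and in the 6 outdoor samples alone the higher call of the side branches (0 for 1) and 1 of 2 lower calls of the leaf development regulators. The count of interaction calls was the least stable result, at 198 (61 more positive, 137 more negative) in the fit over 21 samples, 939 (218 and 721) with DESeq2, and 219 to 887 without single libraries. The cause was not tested. Of its 18 described genes, 7 held in all alternatives. Depth limits low genes: 1 count was 0.0661 to 0.0865 CPM before scaling, and Nanopore levels rest on few counts.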

Other observations

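Further described genes showed large changes outdoors outside the groups above. NUCLEAR FUSION DEFECTIVE 4-like (CATHA_2175) had 53.9, 76.8 and 16.8 CPM in leaf pair 4, against 5.8, 5.12 and 1.19 CPM in leaf pair 1 (log2 FC 3.61 ± 0.624), with plant 3 the lowest of both leaf pairs. A clathrin assembly protein (CATHA_6372), of the coat that forms vesicles, had 9.91, 39.8 and 19.4 CPM in leaf pair 4, against 0.508, 3.41 and 2.44 CPM in leaf pair 1 (3.42 ± 0.708). The EGF-like domain protein CATHA_19988 had a log2 FC of 3.42 ± 0.499. On the lower side, an L-ascorbate oxidase homolog (CATHA_19047) had 1.9, 2.57 and 5.03 CPM in leaf pair 4, against 44.7, 58.6 and 56.8 CPM in leaf pair 1 (-4.07 ± 0.436), and a second GDSL lipase (CATHA_2284) had 0.496, 1.33 and 0.419 CPM in leaf pair 4, against 12.1, 11.1 and 12.7 CPM in leaf pair 1 and was called lower. Groups were separated in all 5 genes.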
